A study of Mus musculus with 2 samples.

Results

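The collagen genes of the mouse heart were followed here through the non-muscle cells of the organ. Members were all gene symbols of the form Col, a number, a and a number, which gave 44 of the 31053 genes in the files. They fall into 11 chains of fibrillar collagens, 9 of network collagens, 9 of the microfibril and anchoring group, 9 of collagens associated with fibrils, 4 of transmembrane collagens and 2 multiplexins. At least 1 molecule of 43 of them was counted in a cell that passed the filters, and Col2a1, the chain of cartilage fibrils, had none. A count of 0 for Col2a1 allows a level of up to 0.251 CPM (UMIs of a gene scaled to the UMI sum of a class, as defined below) in fibroblast-like cells of the db/+ library and 0.225 CPM in those of the other library.

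Collagens are trimers of chains wound into a triple helix. Types I, III and V form the fibrils that carry tension between heart muscle cells. Type IV forms the sheet of basement membranes around capillaries and muscle cells, from Col4a1 and Col4a2 chains or, in some membranes, from the Col4a3, Col4a4, Col4a5 and Col4a6 chains. Type VI forms beaded filaments near cells, types XII and XIV sit on the surface of fibrils, and types XV and XVIII are proteoglycan collagens of the zone between basement membrane and fibrils. In the heart, fibroblasts are known as the main source of fibrils, and endothelial cells and pericytes as sources of basement membrane.

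Single-cell RNA sequencing was done on digested hearts from which cardiomyocytes had been filtered out and CD45+ cells, the leukocytes, had been removed with magnetic beads. Each group is 1 library. The control library came from db/+ mice, heterozygous for a mutation of the leptin receptor (Lepr). The other came from db/db mice, which are homozygous, lack the signalling form of the receptor and are known to become obese and diabetic; these also had 1% salt and stand for HFpEF, heart failure in which the ejection fraction is kept. Hearts were male, 4 per genotype, and neither age nor any pooling of hearts is stated in the labels. Genotype and salt differed together, so they cannot be told apart.

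The libraries held 44935235 and 40974634 unique molecular identifiers (UMIs, each standing for 1 captured RNA molecule) over 5676 barcodes in db/+ and 4751 in db/db and salt. After filtering, 4884 and 4094 barcodes remained, with medians of 7048 and 7772 UMIs. Only 5 of these barcodes occurred in both libraries. A single library in each group allows no test across samples, and no p-value is given. A level is the UMI sum of a gene scaled to the UMI sum of the class (CPM), with an exact Poisson 95% interval that covers counting error only and says nothing of the spread between animals. The UMIs were counted at transcript 3' ends, where 1 captured molecule gives 1 count whatever the length of the gene, so levels were not scaled by length. Capture can still differ between genes. Ratios between genes, given below in molecules, are therefore of counted molecules only. A ratio sets db/db and salt over db/+ on the log2 scale once 10 CPM have been added to both levels, which draws low genes towards 0. Below, values are given in the order db/+, then db/db and salt.

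Cells were put into classes by the UMIs of marker genes, none of them a collagen, so that collagen levels played no part in the naming. The names say no more than that. This gave 3150 and 2600 vascular endothelial-like cells, 1214 and 1081 fibroblast-like cells, 56 and 50 endocardial-like cells, 26 and 24 lymphatic endothelial-like cells, 42 and 35 pericyte-like cells, 18 and 22 smooth muscle-like cells and 18 and 8 Schwann-like cells. All 8 endothelial markers were found in at least 50% of the vascular endothelial-like cells of each library, and all 8 fibroblast markers in as many of the fibroblast-like cells. Leukocyte markers summed to 7.09 and 4.26 CPM in vascular endothelial-like cells and cardiomyocyte markers to 67.9 and 48.3 CPM.

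Of the barcodes with pericyte or smooth muscle markers, 230 of 298 (77.2%) and 167 of 236 (70.8%) also carried endothelial markers, at medians of 14229.5 and 14720 UMIs against 4652 and 5041 in the others; they were kept apart as mixtures, which leaves few cells in the pericyte-like and smooth muscle-like classes. A clustering made without the collagens had 1 cluster of endothelial-like cells with 821 db/+ cells and 10 db/db and salt cells, and another with 141 and 0. For vascular endothelial-like cells, the ratios of Col15a1 and Col8a1 and a count of genes that act on collagen are therefore also given without those 2 clusters. Cells assigned to a subset lay on a continuum of marker scores, and 1147 and 945 vascular endothelial-like cells and 385 and 352 fibroblast-like cells lay near a limit.

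Collagens made up 1.75% and 1.56% of all UMIs in fibroblast-like cells and 0.447% and 0.421% in vascular endothelial-like cells. Pericyte-like cells were in between at 0.795% and 0.667%, and endocardial-like cells (0.225% and 0.231%) and lymphatic endothelial-like cells (0.158% and 0.12%) had the lowest shares. The breadth of the repertoire differed as well. A mean level of at least 10 CPM, called measured here, was reached by 23 of 44 collagens in fibroblast-like cells and by 6 in vascular endothelial-like cells. After each cell was thinned to 1500 UMIs, a fibroblast-like cell carried UMIs of a median of 10 different collagens in both libraries, and a vascular endothelial-like cell of 2.

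**Figure D1:**
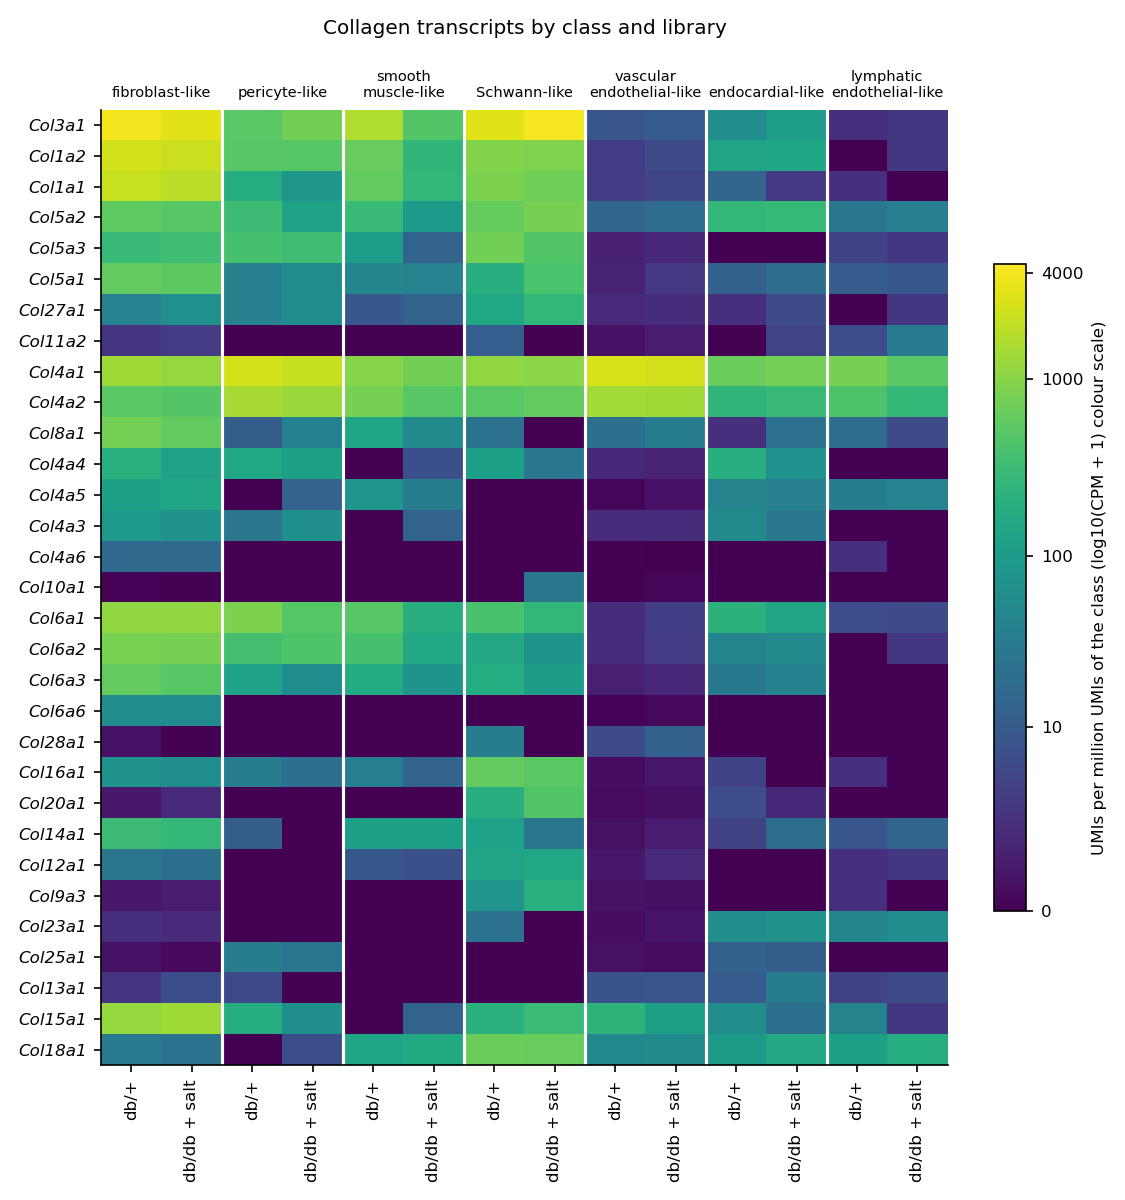
Level of each collagen that reached 10 CPM in at least 1 class, with genes in rows, grouped as fibrillar, network, microfibril and anchoring, fibril-associated, transmembrane and multiplexin, and the classes and libraries in columns; colour is log10(CPM + 1). Col3a1 is brightest in fibroblast-like and Schwann-like cells, and in vascular endothelial-like cells Col4a1 and Col4a2, at 1355 CPM or more, stand above every other row.

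In fibroblast-like cells the chains of types III and I led. Col3a1 was the most abundant at 3922 CPM (95% interval 3887 to 3958) and 3119 CPM (3090 to 3150), followed by Col1a2 at 2527 and 2277 CPM and Col1a1 at 2195 and 1868 CPM. The type V chains, which start fibrils and limit their width, were present in similar amounts for Col5a1 (587 and 532 CPM) and Col5a2 (561 and 503 CPM), with Col5a3 lower at 294 and 338 CPM. Col27a1, a minor fibril chain known mainly from cartilage, stood at 40.4 and 68.2 CPM. The other fibrillar chains, Col2a1, Col11a1, Col11a2 and Col24a1, stayed below 10 CPM.

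Basement membrane chains were also abundant in fibroblast-like cells. Col4a1 stood at 1360.1 and 1200.5 CPM and Col4a2 at 528 and 476 CPM, so that 2.58 and 2.52 Col4a1 molecules were counted per Col4a2 molecule, against 1.93 and 1.89 in vascular endothelial-like cells. The alternative type IV chains were found as well: Col4a4 at 206 and 121 CPM, Col4a5 at 117 and 137 CPM, Col4a3 at 92.2 and 75.1 CPM and Col4a6 at 16.9 and 17 CPM. In the last 1000 bases of Col4a3, where such reads fall, the annotation has an exon of C430014B12Rik on the opposite strand. Whether this affects the count was not tested. Col8a1, a short network collagen known from vessel walls, reached 778 and 594 CPM, and its partner chain Col8a2 only 6.68 and 5.47 CPM.

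Type VI came next, with Col6a1 at 1119 and 1112 CPM, Col6a2 at 823 and 808 CPM and Col6a3, the longest of the classic chains of the filament, at 589.5 and 513 CPM. Col6a6 stood at 61.7 and 57.1 CPM, while Col6a4 and Col6a5 had 4 and 6 UMIs over all cells of any class that passed the filters, both libraries together. Among collagens of the fibril surface, Col14a1 had 313 and 273 CPM, Col16a1 73.0 and 60.8 CPM and Col12a1 26.5 and 21.4 CPM. Of the multiplexins, Col15a1 was at 1195 and 1337 CPM and Col18a1, the source of endostatin, at 30.7 and 23.5 CPM. In fibroblast-like cells 38.9 and 56.8 Col15a1 molecules were thus counted per Col18a1 molecule, and in vascular endothelial-like cells 4.70 and 2.14.

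The fibroblast-like subsets, set by other markers, all had type I, III and V chains and differed in the levels of several collagens. Of the type V chains, Col5a3 was at 347 and 420 CPM in interstitial and 177 and 138 CPM in matrix-activated cells, and Col5a2 at 459 and 453 CPM in interstitial and 867 and 655 CPM in matrix-activated cells. Matrix-activated cells (150 and 83, marked by genes such as Cilp, Postn and Comp) had Col8a1 at 1621 and 1301 CPM, while interstitial cells (172 and 175) had 486 and 434 CPM and adventitial cells (194 and 186, with Pi16 and Dpp4 among their markers) had 488 and 349 CPM. Col12a1, found in tissue under tension, was at 100.4 and 98.9 CPM in matrix-activated cells and at 11.7 and 13.5 CPM in adventitial cells. Both libraries showed these orders with intervals that did not overlap. Col8a2 (28.7 and 22.3 CPM), Col9a2 (11.3 and 27.1 CPM), Col11a2 (13.3 and 27.9 CPM) and Col13a1 (5.12 and 20.7 CPM) reached a mean of 10 CPM in matrix-activated cells and in no other fibroblast-like subset.

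Interstitial cells had most Col6a6, at 160 and 130 CPM, against 25.7 and 21.5 CPM in adventitial cells and 9.22 and 9.57 CPM in matrix-activated cells. They also had most Col6a3, at 823 and 727 CPM, with 547 and 436 CPM in matrix-activated and 245 and 216 CPM in adventitial cells. Adventitial cells had the highest Col14a1, at 452 and 346 CPM, against 381 and 296 CPM in matrix-activated cells. In db/db and salt the intervals of these 2 subsets overlapped (324 to 368 and 266 to 327 CPM). Adventitial cells had lower Col15a1 (840.0 and 810 CPM) and Col4a1 (892 and 774 CPM) than interstitial cells (1253 and 1627 CPM for Col15a1, 1683 and 1560 CPM for Col4a1). Matrix-activated cells had Col4a1 at 1100 CPM in db/+, above adventitial cells, and at 758 CPM (711 to 808) in db/db and salt, with an interval that overlapped theirs (742 to 808).

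**Figure D2:**
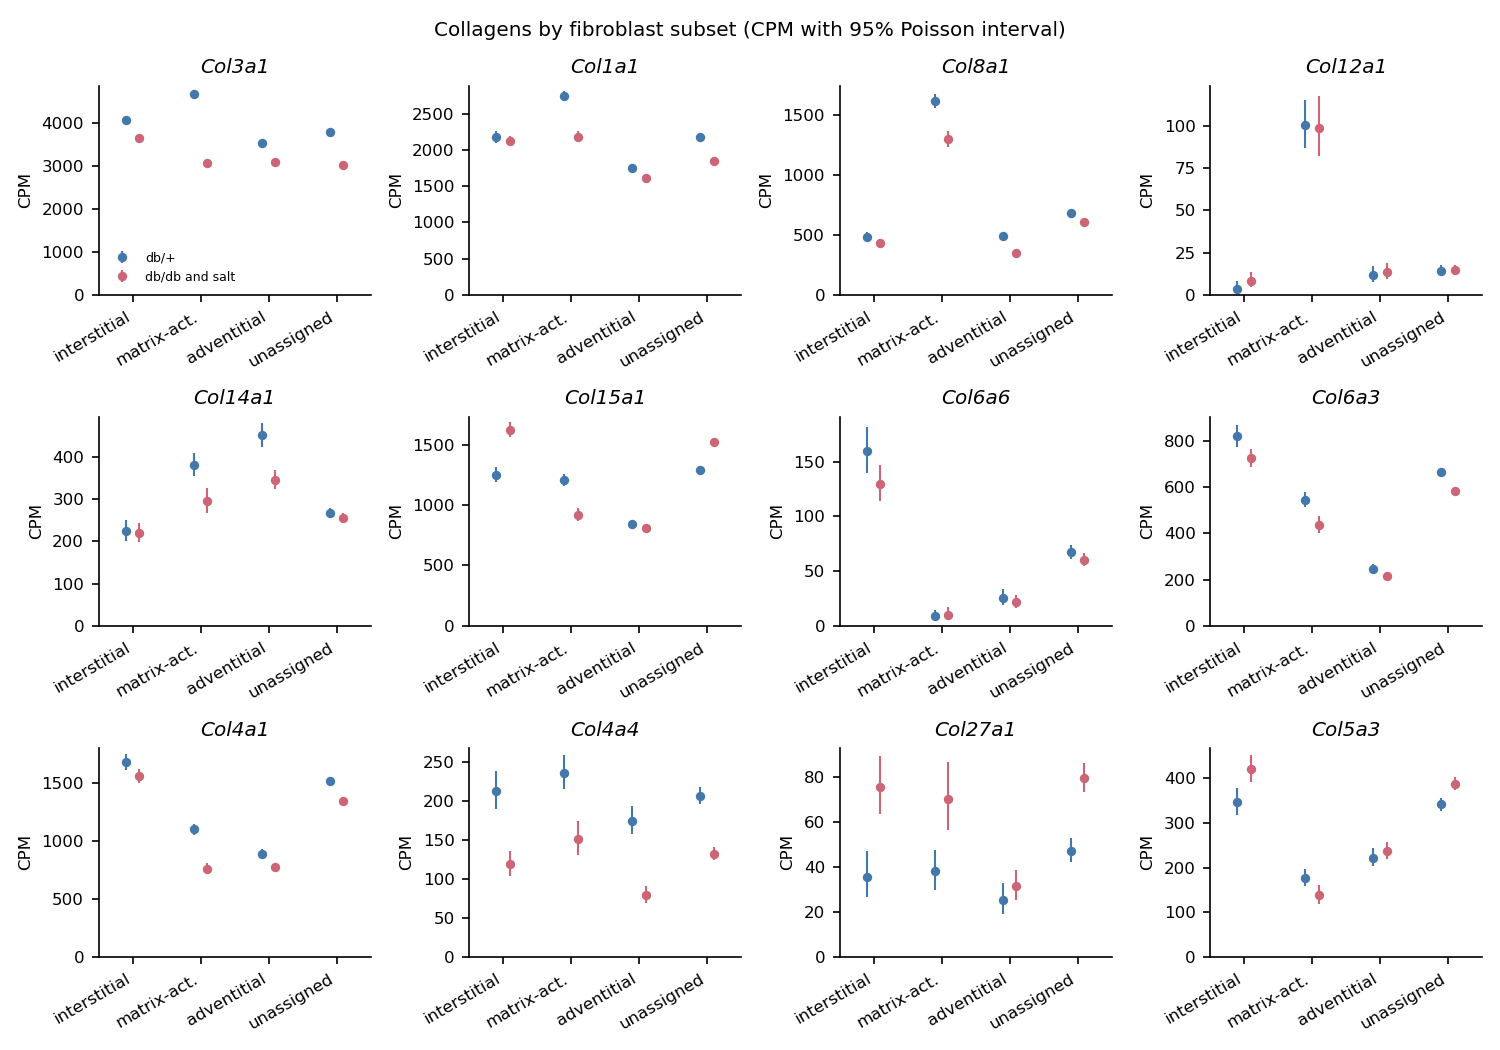
Level (CPM) of 12 collagens in the interstitial, matrix-activated, adventitial and unassigned fibroblast-like cells; points are the 2 libraries and bars are exact Poisson 95% intervals, with each vertical axis starting at 0. Col8a1 and Col12a1 stand out in matrix-activated cells, Col6a6 in interstitial cells, and Col4a4 is lower in db/db and salt in all 4 groups.

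Since free RNA of lysed fibroblasts can enter any droplet, each collagen outside the fibroblast-like class was set against 12 other fibroblast genes that took no part in naming cells. These 12 summed to 0.302% (0.279 to 0.325%) and 0.459% (0.429 to 0.491%) of their fibroblast-like level in vascular endothelial-like cells. The lowest single gene, Smoc2, stood at 0.0984% and 0.236% and the highest, Mfap5, at 0.619% and 0.944%. The type I and III chains were within this range: Col1a1 in vascular endothelial-like cells was at 3.48 and 4.73 CPM, or 0.159% and 0.253% of the fibroblast-like level, Col1a2 at 0.136% and 0.27% and Col3a1 at 0.217% and 0.331%. Lying in this range cannot tell fibroblast RNA from a low level of the cells' own, and the source was not tested. No difference between the libraries is read from types I, III and VI in vascular endothelial-like cells. Among them, Col1a2 (3.44 and 6.15 CPM) and Col6a1 (2.04 and 3.79 CPM) had intervals that did not overlap. The held-out share was itself higher in the db/db and salt library.

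By contrast, 12 collagens in vascular endothelial-like cells lay above what the highest single held-out gene would bring, in both libraries. They were Col4a1, Col4a2, Col15a1, Col18a1, Col8a1, Col5a2, Col13a1, Col28a1, Col4a3, Col27a1, Col12a1 and Col11a2, the last 4 at or below 2.05 CPM. Col4a1 and Col4a2 were above the fibroblast-like level itself, Col4a1 at 199% and 213% of it. Col5a2 stood at 14.6 and 17.7 CPM, or 2.61% and 3.52%, where Col5a1 stood at 0.217% and 0.564%.

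**Figure D3:**
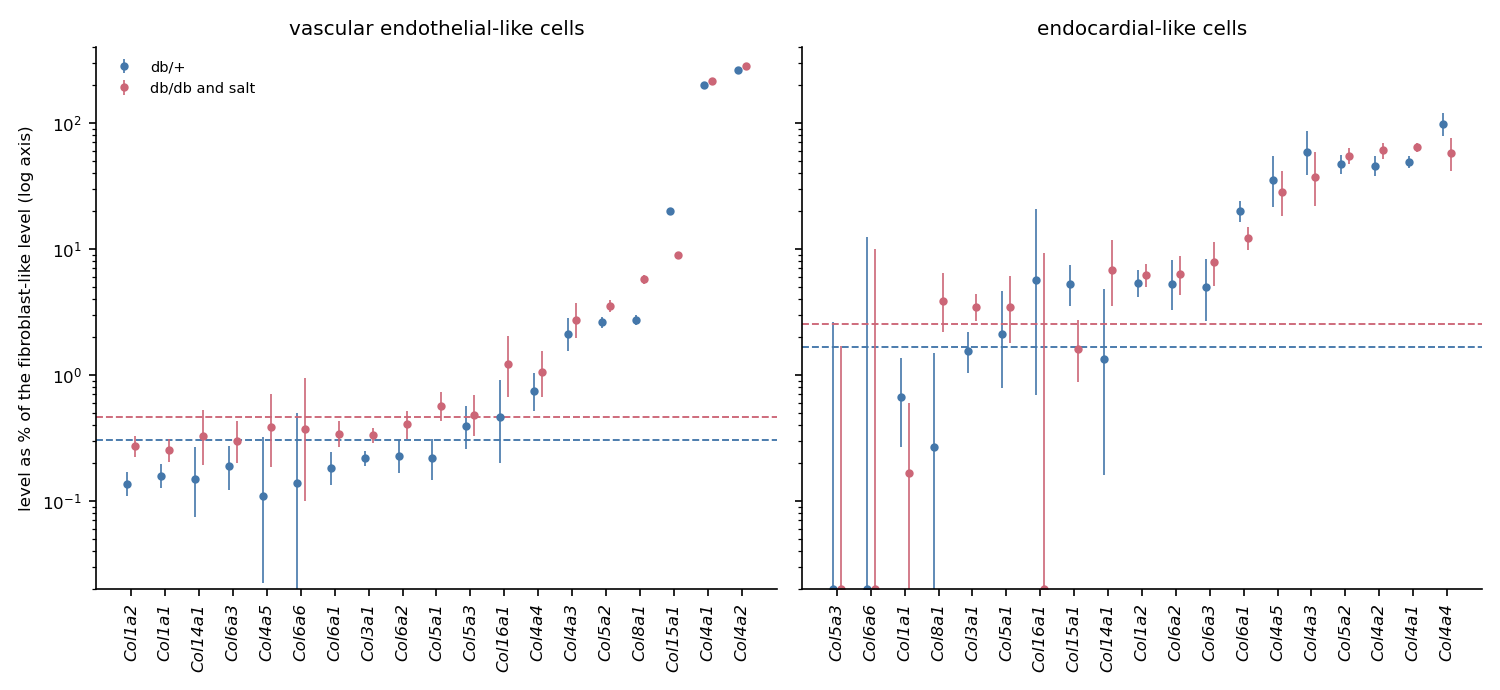
Level of each collagen in vascular endothelial-like (left) and endocardial-like cells (right) as a percentage of its fibroblast-like level on a log axis, for collagens with at least 50 CPM in fibroblast-like cells of both libraries; bars are Poisson 95% intervals, points at the lower edge are at or below it, and dashed lines are the summed share of the 12 held-out fibroblast genes. Col1a1, Col1a2 and Col3a1 lie near the lines on the left, while Col5a2, Col15a1, Col4a1 and Col4a2 lie above them.

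Vascular endothelial-like cells made chiefly basement membrane collagen. Col4a1 was at 2702 CPM (2681 to 2723) and 2562 CPM (2539 to 2584) and Col4a2 at 1397 and 1355 CPM, and after thinning to 1500 UMIs 92.1% of cells in each library had a Col4a1 UMI. Col15a1 followed at 237 and 119 CPM, then Col18a1 at 50.5 and 55.3 CPM and Col8a1 at 21.1 and 34.1 CPM. Among subsets, angiogenic cells (278 and 212, marked by Apln, Esm1 and others) had the highest Col4a1, at 3661 and 3514 CPM, and capillary cells (436 and 568) had 2785 and 2482 CPM. Arterial cells (364 and 338) had 1730.5 and 1709 CPM and venous cells (304 and 166) 1475 and 1431 CPM.

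The minor collagens differed between endothelial subsets. Arterial cells had the highest levels of Col18a1 (223 and 251 CPM, against 10.1 and 7.74 CPM in capillary cells) and of Col8a1 (129 and 170.4 CPM, against 2.98 and 4.59 CPM). Venous cells were the only vascular subset with Col13a1, a transmembrane collagen of cell adhesion sites, above 10 CPM, at 56.8 CPM (48.1 to 66.5) and 56.1 CPM (44.7 to 69.4). Angiogenic cells had the most Col28a1, which resembles type VI in its von Willebrand factor domains, at 20.9 CPM (16.1 to 26.6) and 45.0 CPM (36.6 to 54.8). Col28a1 had 6 and 0 UMIs in all fibroblast-like cells. Col5a2 was found in arterial (49.99 and 58.2 CPM) and venous cells (39.0 and 56.7 CPM), with 2.61 and 6.88 CPM in capillary and 1.30 and 6.82 CPM in angiogenic cells.

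**Figure D4:**
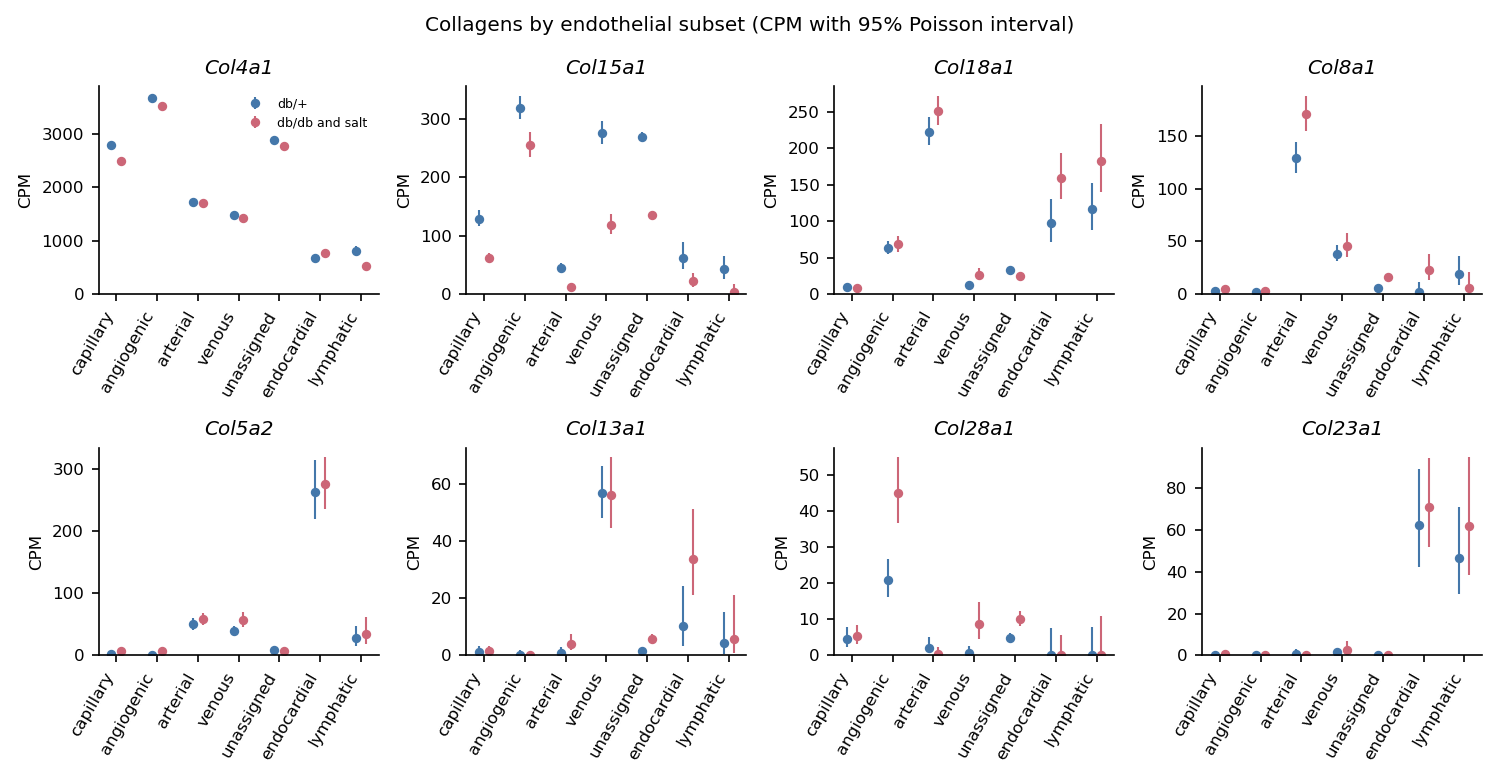
Level (CPM) of 8 collagens in the vascular endothelial-like subsets and in endocardial-like and lymphatic endothelial-like cells; points are the 2 libraries, bars are exact Poisson 95% intervals and each axis starts at 0. Col18a1 and Col8a1 peak in arterial cells, Col13a1 in venous, Col28a1 in angiogenic, and Col5a2 in endocardial-like cells.

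Endocardial-like cells, the lining of the heart chambers by their markers, had 19 measured collagens. Col4a1 stood at 664 and 767 CPM, Col4a2 at 241 and 287 CPM, Col5a2 at 264 CPM (220 to 314) and 275 CPM (236 to 319), Col6a1 at 222 and 135 CPM and Col23a1, a transmembrane collagen, at 62.3 and 70.7 CPM. Also measured were Col18a1 (97.6 and 160 CPM), Col3a1 (60.2 and 108 CPM), Col6a2 (43.6 and 50.7 CPM) and Col6a3 (29.1 and 40.0 CPM), and Col5a1 was at 12.5 and 18.4 CPM. The alternative type IV chains were present, with Col4a4 at 201 and 69.2 CPM, Col4a3 at 54.0 and 27.7 CPM and Col4a5 at 41.5 and 38.4 CPM. Col1a2 was at 135 CPM (104 to 172) and 141 CPM (114 to 173) while Col1a1 was at 14.5 and 3.07 CPM. That is 0.108 and 0.0217 Col1a1 molecules per Col1a2 molecule, where fibroblast-like cells had 0.869 and 0.82.

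Held-out fibroblast genes summed to 1.67% and 2.55% of the fibroblast-like level in endocardial-like cells. The highest single gene was Mfap5 (4.91% and 9.25%), and without it the share was 0.917% and 1.03%. Above the highest single gene in both libraries were 9 collagens: Col4a1, Col4a2, Col4a3, Col4a4, Col4a5, Col5a2, Col6a1, Col18a1 and Col23a1. These cells carried a median of 23.5 and 13.8 fibroblast marker UMIs per 10000, under the limit of 60 for a fibroblast-like call. In each library 28 cells lay far from the limits, a choice made in part on low fibroblast markers. By that choice their fibroblast markers summed to 861 and 513 CPM in place of 2880 and 2037 CPM. In these cells Col1a1 had no UMI, Col1a2 was at 67.8 and 155 CPM and Col3a1 at 4.24 and 117 CPM. In the same cells Col4a4 was at 123 and 43.5 CPM, Col6a1 at 157 and 92.3 CPM and Col15a1 at 119 and 24.4 CPM.

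Lymphatic endothelial-like cells had Col4a1 (812 and 515 CPM), Col4a2 (424 and 271 CPM) and Col18a1 (117 and 182 CPM) as leading chains. Col23a1 (46.7 and 61.8 CPM) and Col4a5 (33.9 and 41.2 CPM) completed the 5 that lay above every held-out gene in both libraries. With 26 and 24 cells, Col4a1 rests on 383 and 175 UMIs, and 5 barcodes gave 65.1% and 49.5% of all collagen UMIs of the class.

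Pericyte-like cells had both basement membrane and fibril chains. Col4a1 was at 2655 CPM (2424 to 2901) and 2118 CPM (1893 to 2363), Col4a2 at 1494 and 1287 CPM, Col6a1 at 845 and 488 CPM and Col3a1 at 523 and 759 CPM. Col1a2 stood at 502 and 482 CPM with Col1a1 at 180 and 85.8 CPM, Col6a2 at 376 and 449 CPM, Col5a2 at 322 and 125 CPM and Col4a4 at 147 and 119 CPM. Type V differed from that of fibroblast-like cells: Col5a3 at 387 and 337 CPM against Col5a1 at 38.2 and 59.4 CPM gave 10.1 and 5.67 Col5a3 molecules per Col5a1 molecule, on 7 and 9 Col5a1 UMIs, where fibroblast-like cells had 0.501 and 0.636. Col25a1, a transmembrane collagen, was at 32.7 and 26.4 CPM on 6 and 4 UMIs. The held-out genes summed to 21.6% and 19.9%, with Cygb above the fibroblast-like level (138% and 172%). Without Cygb the share was 5.06% and 4.77%, and the median gene was at 0.894% and 0.687%. Against the highest single gene, Cygb, only Col4a2 lay above in both libraries. With Cygb above its fibroblast-like level, that bar exceeds the fibroblast-like level of each collagen. It therefore cannot tell RNA of fibroblasts from that of the cells themselves, and nothing is drawn from it.

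In smooth muscle-like cells (18 and 22) a few cells held most of the collagen UMIs. Col3a1 was at 1674 CPM (1443 to 1931) and 475 CPM (370 to 602), the highest collagen in db/+, and Col4a1, the highest in db/db and salt, at 988 and 758 CPM, with Col4a2 at 801 and 509.8 CPM and Col1a2 at 632 and 255 CPM. Col1a1 was at 597 and 262 CPM, Col6a1 at 499 and 199.8 CPM and Col18a1 at 142 and 165 CPM. The median cell had 0.215% and 0.119% of its UMIs in collagens and the highest 1.63% and 1.15%, and 5 barcodes held 75.3% and 77.5% of the collagen UMIs. Without those 5, collagens made up 0.294% and 0.121% in place of 0.674% and 0.328%. The difference between the libraries in this class was not read further. Fibroblast markers summed to 1407 and 1075 CPM in these cells. The held-out fibroblast genes summed to 5.26% and 5.08% of their fibroblast-like level, and to 4.73% and 4.27% without the highest, Tmem119. Tmem119 stood at 88.1% and 131%, and Col18a1 alone lay above that gene in both libraries. A bar near or above the fibroblast-like level cannot tell RNA of fibroblasts from that of the cells themselves. These cells also carried pericyte markers, at medians of 207 and 179.6 UMIs per 10000.

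Schwann-like cells, the glia of cardiac nerves by their markers, numbered 18 and 8. Col3a1 (3014 and 4029.8 CPM), Col4a1 (1095 and 1033 CPM) and Col1a2 (926 and 878 CPM) had high levels. They also had Col18a1 at 677 and 646 CPM, Col5a3 at 756 and 465 CPM and Col16a1 at 587 and 517 CPM, each above its fibroblast-like level. Col20a1, at most 6.23 CPM in any other class, was at 192 and 465 CPM on 17 and 18 UMIs, and Col9a3 at 79.0 and 207 CPM on 7 and 8 UMIs. An exon of Tcfl5 lies on the opposite strand at the end of Col9a3, and whether this affects the count was not tested. The held-out fibroblast genes summed to 14.5% and 11.7%, with Abca8a above its fibroblast-like level in both libraries (138% and 102%), and to 1.97% and 1.74% without it. Against Abca8a, 4 collagens lay above in both libraries: Col16a1, Col18a1, Col20a1 and Col27a1. That bar too exceeds the fibroblast-like level, so collagens under it cannot be assigned to fibroblasts or to the cells themselves. In this class 5 barcodes held 59.4% and 81.0% of the collagen UMIs.

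The libraries were then compared gene by gene in the classes with at least 100 cells in each. In fibroblast-like cells the 23 measured collagens had a median ratio of -0.15, against 0.02 for the 8649 genes that passed the same limit. Differences were mostly small: 1 collagen, Col4a4, was at least 1.5-fold lower (background 0.913% of measured genes) and 1, Col27a1, at least 1.5-fold higher (background 0.601%). Col3a1 had a log2 ratio of -0.33, Col1a1 of -0.23 and Col1a2 of -0.15, and Col8a1 of -0.38. Summed over all members, the log2 ratio was -0.17, and without the matrix-activated cells, which were fewer in db/db and salt, -0.12. Col15a1 (0.16), Col4a5 (0.21) and Col5a3 (0.19) had ratios above 0, each under 1.5-fold.

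Within subsets the pattern was uneven. Matrix-activated cells had Col3a1 at 4668 and 3061 CPM (log2 ratio -0.61), Col4a2 at 560.4 and 352 CPM (-0.65) and Col15a1 at 1206 and 921 CPM (-0.39), whereas interstitial cells had Col3a1 at 4057 and 3644 CPM (-0.15) and Col15a1 at 0.37 on the log2 scale. Ratios above 0 in matrix-activated cells included those of Col27a1 (0.74) and, on 35 or fewer UMIs in each library, Col13a1 (1.02), Col9a2 (0.80) and Col11a2 (0.70). With 83 matrix-activated cells in the db/db and salt library, no share of all genes is set beside these values. In interstitial cells 1 measured collagen was at least 1.5-fold lower (Col4a4, background 2.14%) and 1 higher (Col27a1, background 2.6%); in adventitial cells Col4a4 was the 1 lower (background 1.07%) and none was higher (background 1.36%). Unassigned cells had the same 2 genes, Col4a4 lower (background 1.1%) and Col27a1 higher (background 0.731%).

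Col4a4 was lower in the db/db and salt library in each fibroblast-like subset and in each of the 3 fibroblast clusters compared. It had 2468 and 1616 UMIs, or 206 CPM (198 to 215) and 121 CPM (115 to 127), a log2 ratio of -0.72. The ratio was -1.04 in adventitial, -0.79 in interstitial and -0.61 in both matrix-activated and unassigned cells, and -0.41 to -1.04 within those clusters, which had at least 100 cells of each library. With 50 CPM added in place of 10 it was -0.58, just short of 1.5-fold. After thinning to 1500 UMIs, 23.3% (20.9 to 25.8%) and 14.3% (12.3 to 16.5%) of fibroblast-like cells had a Col4a4 UMI, against 66.6% and 53.3% before, and 0.169% and 0.12% of vascular endothelial-like cells did after thinning. Endocardial-like cells had a level of 201 CPM (163 to 246) on 97 UMIs in db/+ and of 69.2 CPM (50.5 to 92.6) on 45 UMIs in db/db and salt. Its head-to-head neighbour Col4a3 differed less in fibroblast-like cells (log2 ratio -0.26), and Col4a4 molecules per Col4a3 molecule were 2.24 in db/+ and 1.61 in db/db and salt.

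Col27a1 was the 1 collagen at least 1.5-fold higher in fibroblast-like cells, with 483 and 911 UMIs, or 40.4 CPM (36.8 to 44.1) and 68.2 CPM (63.9 to 72.8), a log2 ratio of 0.64. The ratio was 0.91 in interstitial, 0.65 in unassigned, 0.74 in matrix-activated and 0.23 in adventitial cells, and with 50 CPM added in place of 10 it was 0.39 over all fibroblast-like cells. Fibroblast-like cells had medians of 9594.5 and 11982 UMIs. After each cell was thinned to 1500 UMIs the ratio was 0.42, below 1.5-fold, and 5.03% (3.86 to 6.43%) and 6.73% (5.3 to 8.4%) of cells had a UMI, with overlapping intervals, against 27.9% and 46.2% unthinned. A thinned share this low is close to that of single UMIs, and no order is read from it.

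In vascular endothelial-like cells the 6 measured collagens had a median ratio of 0.03 (-0.05 with TMM scaling), where the 8250 genes that passed the limit had 0.05. Col15a1 was at least 1.5-fold lower (background 1.49%) and none was at least 1.5-fold higher (background 0.521%). Col4a1 (-0.08) and Col4a2 (-0.04) differed little, and Col8a1 had 0.51, Col18a1 0.11 and Col5a2 0.17.

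Col15a1 had 5591 and 2254 UMIs in vascular endothelial-like cells, or 237 CPM (231 to 244) and 119 CPM (114 to 124), a log2 ratio of -0.94. Without the 2 clusters nearly of 1 library, where it stood at 270.1 and 355 CPM in db/+, the ratio was -0.80. Within the 6 clusters with at least 100 cells of each library it lay between -0.33 and -1.23. After thinning, 22.4% (20.9 to 23.9%) and 10.3% (9.15 to 11.6%) of cells had a Col15a1 UMI, against 45.6% and 27.3% before, at similar medians of 5326 and 5385 UMIs. For comparison, Col1a1, with a higher level than Col15a1 in fibroblast-like cells, was found after thinning in 0.474% and 0.602% of the same cells. The source of its UMIs there was not tested.

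By subset, Col15a1 was at 275 CPM (256 to 296) and 119 CPM (102 to 138) in venous cells, at 129 CPM (115 to 143) and 60.8 CPM (52.9 to 69.5) in capillary cells and at 44.0 CPM (35.9 to 53.4) and 12.6 CPM (8.48 to 17.9) in arterial cells. Angiogenic cells had the highest level and the smallest difference, 318 CPM (299 to 339) and 255 CPM (234 to 277), a log2 ratio of -0.31. It was the 1 measured collagen at least 1.5-fold lower in capillary (background 1.22%), arterial (1.6%), venous (2.63%) and unassigned cells (1.48%), and none was so in angiogenic cells (2.0%). At least 1.5-fold higher were Col18a1 in venous cells (12.2 and 26.7 CPM, background 2.25%), Col28a1 in angiogenic cells (background 1.07%) and Col8a1 in unassigned cells (6.03 and 15.9 CPM, background 0.669%). None was higher in capillary (background 1.15%) or arterial cells (background 1.13%). Subset ratios were not recomputed without the 2 clusters nearly of 1 library. In db/+ cells of the larger of these clusters Col8a1 was at 3.73 and Col28a1 at 2.24 CPM, and of the smaller at 22.2 and 0 CPM. In the barcodes with both endothelial and mural markers (223 and 157) 3 of 17 measured collagens were at least 1.5-fold lower (background 1.94%), Col15a1 at 140 and 83.5 CPM, Col1a1 at 42.3 and 13.1 CPM and Col6a3 at 31.9 and 14.7 CPM, and 1 was higher (background 1.0%), Col4a5 at 5.92 and 14.3 CPM. Their held-out fibroblast genes summed to 4.89% and 3.91% of the fibroblast-like level, with Cygb highest at 33.2% and 34.6%. None of the collagens just named lay above Cygb in both libraries, and no difference is read from Col1a1, Col6a3 or Col4a5. In the cluster with the markers of this mixture (216 and 164 cells), Col15a1 was at 139 and 128 CPM, a log2 ratio of -0.11.

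In the small classes Col15a1 rests on few molecules and did not go one way. Endocardial-like cells had 62.3 and 21.5 CPM (30 and 14 UMIs), pericyte-like cells 179.9 and 66.0 CPM (33 and 10 UMIs) and lymphatic endothelial-like cells 42.4 and 2.94 CPM (20 and 1 UMIs). Schwann-like cells had 214 and 310 CPM (19 and 12 UMIs, with overlapping intervals) and smooth muscle-like cells 0 and 2 UMIs.

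In fibroblast-like cells Col15a1 stood at 1195 CPM (1175 to 1214) and 1337 CPM (1317 to 1357), a ratio of 0.16, opposite in sign to the vascular endothelial-like value. Within the 3 fibroblast clusters the Col15a1 ratio was 0.34, -0.02 and -0.13, and by subset it ran from -0.39 in matrix-activated to 0.37 in interstitial cells, so the sign did not hold in every group of fibroblast-like cells. Col8a1 had the reverse pair of signs, with 21.1 CPM (19.3 to 23.002) and 34.1 CPM (31.5 to 36.8) in vascular endothelial-like cells and 778 CPM (762 to 794) and 594 CPM (581 to 608) in fibroblast-like cells. In endothelial-like cells its ratio was 0.51, but 0.21 without the 2 clusters nearly of 1 library, and it ran from -0.56 to 0.57 within single clusters. Neither difference between classes was tested.

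**Figure D5:**
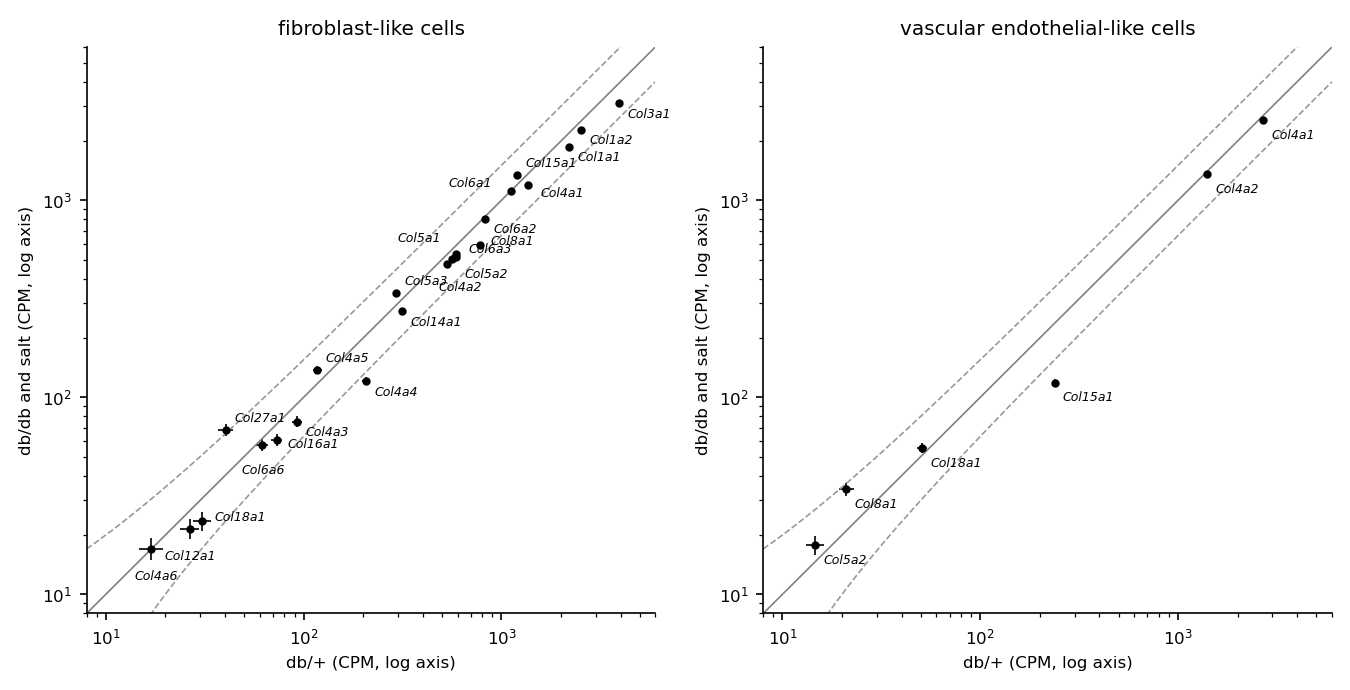
Level of each measured collagen in db/db and salt (vertical) against db/+ (horizontal), both in CPM on log axes, in fibroblast-like cells (left, 23 collagens) and vascular endothelial-like cells (right, 6); bars are Poisson 95% intervals, the solid line marks equal levels and the dashed lines a 1.5-fold difference after adding 10 CPM. Col4a4 and Col27a1 on the left and Col15a1 on the right lie beyond the dashed lines, and all other points lie between them.

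Among measured collagens, 4 had the largest ratios, in either direction, in fibroblast-like or vascular endothelial-like cells taken whole. The stretches before the transcription starts of these 4 genes are shown. They are the 250 bases before the RefSeq start of Col15a1 (chr4:47207762-47208011, plus strand), Col8a1 (chr16:57754738-57754987, minus strand) and Col27a1 (chr4:63215162-63215411, plus strand), and the 71 bases that separate Col4a4 from Col4a3 (chr1:82586850-82586920, written on the strand of Col4a4), all from RefSeq on GRCm38.p6, 5′ to 3′ on the strand of the gene. None overlaps an annotated exon; that of Col27a1 lies inside the longest annotated model of the gene. Capitals mark GC boxes, GGGCGG or its complement CCGCCC.
Col15a1: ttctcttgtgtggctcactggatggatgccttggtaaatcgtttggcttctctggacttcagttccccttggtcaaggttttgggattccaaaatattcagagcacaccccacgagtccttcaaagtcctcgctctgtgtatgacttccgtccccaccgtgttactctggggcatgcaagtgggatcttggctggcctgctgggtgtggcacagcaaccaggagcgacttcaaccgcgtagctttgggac
Col8a1: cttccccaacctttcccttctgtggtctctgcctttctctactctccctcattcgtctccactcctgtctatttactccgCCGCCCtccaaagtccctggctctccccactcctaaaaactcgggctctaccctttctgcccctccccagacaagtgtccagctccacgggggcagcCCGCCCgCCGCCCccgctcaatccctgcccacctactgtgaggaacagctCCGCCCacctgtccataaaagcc
Col27a1: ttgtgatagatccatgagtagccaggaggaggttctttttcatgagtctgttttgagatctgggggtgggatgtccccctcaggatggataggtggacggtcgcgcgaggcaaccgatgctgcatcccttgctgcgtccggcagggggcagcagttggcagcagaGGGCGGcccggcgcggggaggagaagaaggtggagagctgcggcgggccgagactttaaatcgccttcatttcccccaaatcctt
Col4a4: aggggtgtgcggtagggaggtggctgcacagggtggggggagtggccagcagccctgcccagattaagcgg

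On either strand, Col8a1 had 4 GC boxes, Col27a1 had 1 and the other two stretches none, and 32.7% of all 32851 windows of 250 bases before a RefSeq start held at least 1 (20.7% at 71 bases). None of the 4 held a CCAAT box (CCAAT or ATTGG, 33.8% of windows at 250 bases and 13.3% at 71) or a TATA box (TATAAA or TTTATA, 12.4% and 4.41%). These are matches of letters, and nothing about the binding of a factor is drawn from them. On the chromosome, the paired type IV genes lie head to head: Col4a1 (chr8:11198423-11312826) and Col4a2 (chr8:11312805-11449287) share 22 bases at their starts, and Col4a4 (chr1:82448423-82586849) faces Col4a3 (chr1:82586921-82722059). Col15a1 lies at chr4:47208161-47313167.

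Genes that modify, secrete, crosslink or bind collagen were counted from a list of 39. In vascular endothelial-like cells 18 were measured, none was at least 1.5-fold higher (background 0.521%) and 1 was lower (background 1.49%), with a median ratio of -0.04. That gene was Colgalt1, which adds galactose to collagen, at 105 and 65.4 CPM (-0.61). Without the 2 clusters nearly of 1 library, none of the list was 1.5-fold lower. The next in size were Pcolce, which helps cleave procollagen and also served as a fibroblast marker here (34.5 and 24.5 CPM, -0.37), P4ha1, a subunit of prolyl hydroxylase (63.7 and 56.7 CPM, -0.14), and Mia3, which loads procollagen for export (64.5 and 71.5 CPM, 0.13).

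In fibroblast-like cells 32 of the 39 were measured and none reached 1.5-fold in either direction (background 0.601% higher and 0.913% lower), with a median of -0.01. The furthest were Colgalt1 (143 and 103 CPM, -0.44), Colgalt2 (34.3 and 46.2 CPM, 0.34), the crosslinking enzyme Lox (44.7 and 58.2 CPM, 0.32) and P3h2, a prolyl hydroxylase (13.2 and 8.61 CPM, -0.32). Colgalt1 was thus the gene of the list with the largest negative ratio in both classes.

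Across the 14 levels given by 7 classes and 2 libraries, the gene whose level followed Col4a1 most closely was Col4a2 (Pearson's r of 0.93 among 7547 genes), then Rhob (0.85), Jak2 (0.84), Arf6 (0.83) and Spred2 (0.82). For Col15a1 they were Wipf1 (0.91), Krtcap2 (0.90), Tmem167 (0.90), Bet1l (0.87) and Arap1 (0.86). Levels of 1 class in the 2 libraries are alike and small classes are noisy, so these values describe the 14 points only.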

How the data were processed

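Each library was deposited as 1 sparse matrix of whole-number UMI counts, not normalized, written by Cell Ranger 6.0.2 per the file headers, with GRCm38 (mm10) per the submitters' processing notes; 3' libraries were made with the 10x v3.1 kit per the labels' protocols. Coordinates are GENCODE M21 on GRCm38, which held 30934 of 31053 gene identifiers and all 44 collagens; 35 collagens had a RefSeq promoter entry. Depth was 44935235 and 40974634 UMIs.

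Barcodes with at most 10% mitochondrial UMIs and at least 500 genes were kept, which removed 609 and 544 and then 119 and 63, and doublets called by Scrublet (0.8% per 1000 cells) were removed, 64 (1.29%) and 50 (1.21%). Classes needed at least 3 markers and, per 10000 UMIs, 20 endothelial, 60 fibroblast, 30 pericyte, 60 smooth muscle or 20 Schwann marker UMIs; barcodes past more than 1 limit were set apart, except that pericyte and smooth muscle markers counted as 1 kind and cells past the smooth muscle limit were called smooth muscle whatever their pericyte markers. Endocardial-like cells needed 3 and lymphatic cells 4 of their markers. Subsets needed a mean z score of 0.5 with a lead of 0.25. Clusters for checks were made without collagens (2000 genes, 30 components, 20 neighbours, resolution 1; Python 3.11.15, scanpy 1.11.5, leidenalg 0.10.2). Intervals are exact Poisson or Clopper-Pearson at 95%, zero counts allow 3 counts, and all cover counting error only. The 12 held-out fibroblast genes were Clec3b, Smoc2, Scara5, Medag, Abca8a, Fbln1, Htra3, Dpep1, Tmem119, Entpd2, Mfap5 and Cygb.

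Groups came from the genotype and treatment labels. With 1 library each there was no test. By the rule for named genes, values are given for collagens that were among the 4 highest of a class, at least 1.5-fold apart with 30 UMIs in the higher library, or a chain of types I, III, IV, V, VI, XV or XVIII, with up to 4 genes of the pathway list per class; further chains of these types at low levels in small classes are left to the heat map, and Col8a1 and collagens of other types were named after their values were seen. The members and all lists were chosen with earlier results of these data known. The ratio step was tested on simulated counts. Other scalings, pseudocounts, filters, cell limits, clusters, thinning and subtraction of fibroblast RNA were tried as alternatives.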

Additional observations from a re-analysis of the deposited data

Results flagged for a closer look

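Col15a1 was lower in vascular endothelial-like cells of the db/db and salt library (log2 ratio -0.94) and slightly higher in its fibroblast-like cells (0.16), so the ratios of the classes had opposite signs. Col8a1 showed the reverse, with 0.51 in vascular endothelial-like and -0.38 in fibroblast-like cells. With 1 library per group neither difference between classes was tested. Over the alternatives run, the Col15a1 ratio lay between -1.13 and -0.77 in vascular endothelial-like and between 0.13 and 0.24 in fibroblast-like cells, and the Col8a1 ratio between 0.21 and 0.67 and between -0.42 and -0.23. Within single clusters, the Col15a1 ratio of fibroblast-like cells ran from -0.13 to 0.34. The Col8a1 ratio of vascular endothelial-like cells ran from -0.56 to 0.57, so neither of these signs held in every cluster.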

How the results depend on the processing

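No paired analysis was possible because each group is 1 library, and for the same reason no replicate could be left out. Of the counts, medians, summed ratios and fibroblast RNA shares under the alternatives, 157 stayed close to the main value and 17 moved, and of the values for single genes and summed levels 288 stayed close and 75 moved; none of those past 1.5-fold changed direction. With a pseudocount of 1 CPM, 1 collagen (not 0) was at least 1.5-fold higher in vascular endothelial-like cells; with 50 CPM, 0 collagens were past 1.5-fold in either direction in fibroblast-like cells and 0 pathway genes were lower in vascular endothelial-like cells, and 0 were also without the clusters nearly of 1 library, an alternative added after seeing the data. Without a filter on low levels the fibroblast-like median over all 44 members was -0.042. With cells thinned to 1500 UMIs, 0 collagens and 1 pathway gene were higher in fibroblast-like cells. With classes taken from clusters, 2 collagens were lower in vascular endothelial-like cells. The cause of these shifts was not tested. The fibroblast RNA share of vascular endothelial-like cells was 0.643% and 0.927% with clusters, 0.272% in db/+ far from the limits, 0.325% in db/+ thinned, and 0.0984% and 0.236% by the lowest or 0.619% and 0.944% by the highest single gene. TMM and median-of-ratios scaling shifted the median of all genes by less than 0.1. Ratios near 0, such as Col18a1 and Col5a2 in vascular endothelial-like cells and Col4a6, Col6a1, Col6a2, Col6a6, Col12a1 and Col14a1 in fibroblast-like cells, took both signs. Subset ratios were not recomputed, and for classes under 100 cells only levels in cells far from the limits were (Schwann-like cells excepted); few UMIs limit both.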
